A study of Mus musculus with 17 samples.

Results

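Transcript levels of 40 mitosis and G2/M genes were described in CD8 T cells sorted from mouse lung tumours. The genes were chosen by symbol, as genes of mitotic entry, the spindle, the kinetochore and cytokinesis, out of 27240 genes in the count table. All 40 were in the table, and all 40 passed the filter on low counts, which kept 20137 genes. The libraries came from knockout mice whose endothelial cells lack PD-L1 (KO) and from wild-type mice (WT). Cells came from core-enriched tissue, taken as macroscopic nodules, or from rim-enriched tissue, taken as parenchymal nodules. There were 6 KO core, 5 WT core, 4 KO rim and 2 WT rim libraries. No treatment is named for any group. The sources used here do not give the age of the mice, the driver of the deletion or the tumour model. The deletion is in endothelial cells, so the level of the PD-L1 gene in sorted T cells checks no label. In WT core, 1 library is labelled as a pool, and nothing says that the other libraries came from separate animals, so p-values measure the spread between these libraries.

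Mitosis separates the copied chromosomes into daughter cells. Entry is driven by the kinase Cdk1 with its B-type and A-type cyclins, and the kinetochore then attaches chromosomes to the spindle. The spindle checkpoint watches this attachment and holds back the anaphase-promoting complex. Once released, the complex marks cyclins, among other proteins, for destruction. Transcripts of these genes are low in resting T cells, accumulate in late S and G2 phase, and fall away after division, so a bulk library that holds more dividing cells holds more of them. CD8 T cells divide when their antigen receptor is engaged, and many tumour-infiltrating CD8 T cells carry this programme. In bulk samples, fewer cells of a type and less RNA per cell cannot be told apart.

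Library totals ran from 21767045 to 32566456 counts. All 10 T cell and CD8 markers were counted in every library, with a mean log2 CPM, counts scaled to the total of each library, between 8.63 and 9.54 per library. Reads from Xist and Y-linked genes placed F322 and O, at both sites, as male and the WT core pool as mixed. Markers of other cells were present too. The summed level of 11 macrophage and monocyte markers ran from 1490 to 4630 CPM in KO core, 1610 to 4950 in WT core, 539 to 6660 in KO rim and 1020 to 1660 in WT rim, and Marco was at 0 in at least 1 library. The summed level of 10 lung epithelium and tumour cell markers ran from 222 to 1010 CPM in KO core, 115 to 642 in WT core, 65.1 to 800 in KO rim and 40.2 to 166 in WT rim, where Sftpb, Nkx2-1 and Scgb1a1 were at 0 in at least 1 library.

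The 40 genes took the smallest share of reads in the WT rim. Together they made up 0.239 to 0.536 percent of the counts in KO core libraries, 0.269 to 0.588 percent in WT core, 0.171 to 0.326 percent in KO rim, and 0.129 and 0.150 percent in the WT rim libraries H874 and H877. The mean log2 CPM over the 40 genes was 5.79 ± 0.42 in KO core (SD, n = 6), 6.09 ± 0.44 in WT core (n = 5), 5.16 ± 0.63 in KO rim (n = 4), and 3.90 and 3.92 in the WT rim libraries. Group means ran in the order WT core, KO core, KO rim, WT rim for 36 of the 40 genes, and WT rim had the lowest group mean for 39. The exception was Racgap1. For 20 genes the WT rim libraries were the 2 lowest of all 17. These counts of genes by group order were not made over all genes, so they have no background share.

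**Figure D1:**
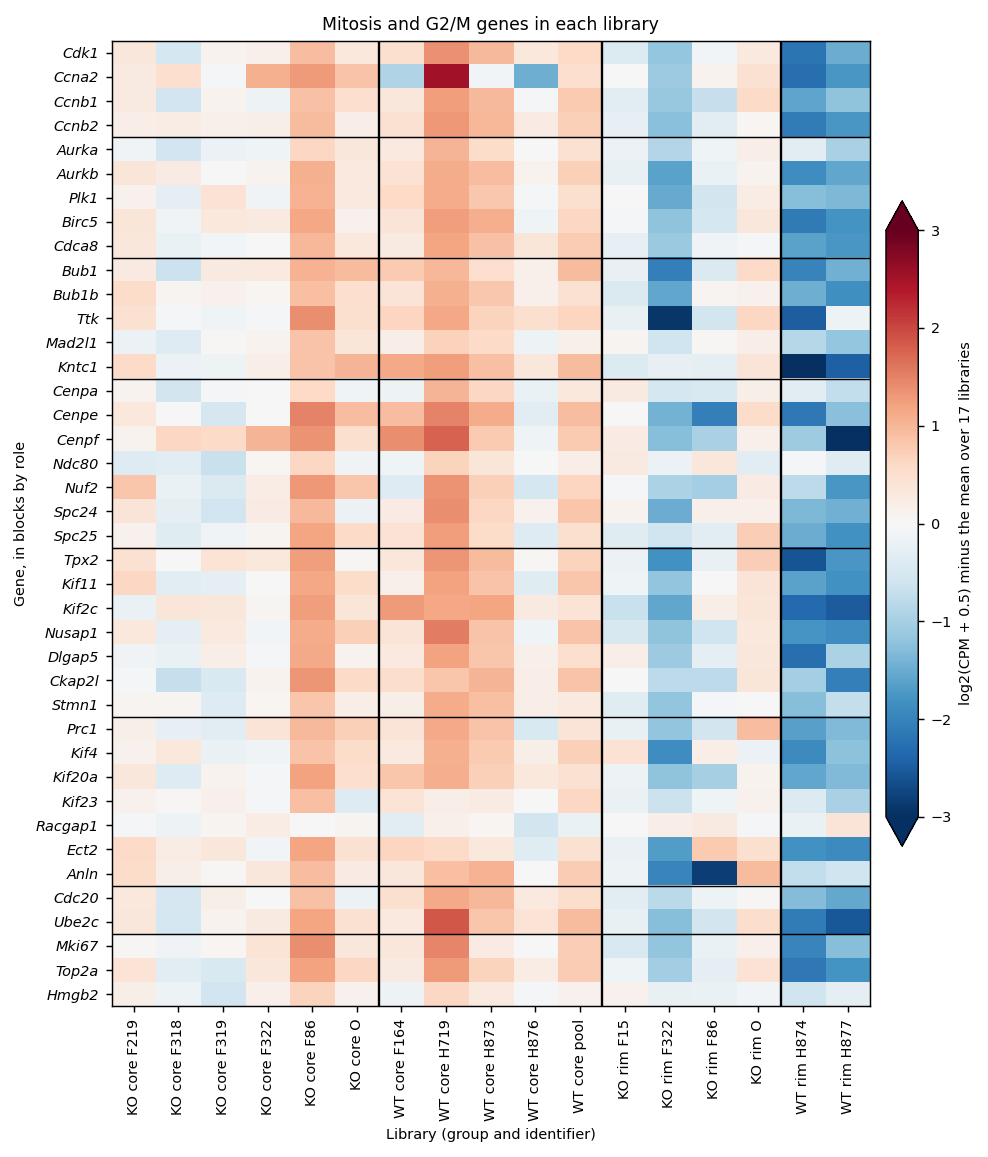
Each row is a gene and each column a library, coloured by log2(CPM + 0.5) minus the gene's mean over the 17 libraries, with columns in the order KO core, WT core, KO rim, WT rim and rows in blocks by role. Most rows are darkest blue in WT rim H874 and H877, while Racgap1 stays pale throughout.

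For the 40 genes, libraries of a group differed mainly as whole libraries rather than gene by gene. In KO core, F86 was the highest of its group for 38 of the 40 genes. In WT core, H719 was the highest for 35 and H876 the lowest for 35. In KO rim, O was the highest for 32 and F322 the lowest for 33. The WT rim libraries showed no such order, with H874 higher for 19 genes and H877 higher for 21. Ranks of libraries were not counted over all genes, so these counts have no background share. In the core the mean of the macrophage markers had no fixed relation to that of the 40 genes. KO core F86 had the lowest of its group, at 4.63 log2 CPM, and WT core H876 the highest of its group, at 6.65. WT core H873, by contrast, had 6.25 for the 40 genes and 6.52 for the macrophage markers. KO core F318 was low for both, at 5.36 and 4.93. In KO rim it ran much as the 40 genes did, with O highest (6.97) and F15 next (6.14), while F322 (3.75) and F86 (2.92) were low. KO core F86 and WT core H719 had the lowest natural killer means of their groups, 2.59 and 2.23 log2 CPM. Their T cell means were the highest, at 9.49 and 9.54. KO core F318 and WT core H876 had the highest natural killer means, 5.77 and 5.74, and the lowest T cell means, 8.86 and 8.63. In KO rim, O had the highest natural killer mean, 4.21, and the lowest T cell mean, 9.3. The part of these lists was not tested.

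The promoters of the genes are shown before their values. As background, many G2/M genes carry CCAAT boxes, bound by the activator NF-Y, and a CHR element near the start of transcription, through which the DREAM complex represses them in resting cells and the B-Myb and FoxM1 complexes work in dividing ones. RefSeq promoters of GRCm38.p6, from 250 bases before to 50 after the start, were matched for 33 of the 40 genes. A CCAAT box (CCAAT or its reverse complement ATTGG) was in 78.8 percent of the 33, against 41.1 percent of 27025 genes with a promoter of this length. The CHR letters TTTGAA, on either strand, were in 78.8 percent against 20.2 percent, and TTTAAA in 27.3 percent against 14.9 percent. A CCAAT box together with either CHR spelling was in 75.8 percent against 12.2 percent. These shares are a description of sequence, and no binding was measured.

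The stretches printed run from 130 bases before to 20 after the start, 5′ to 3′ on the gene's strand, with CCAAT boxes and CHR letters in capitals on either strand. They show Kntc1, Ccnb2, Cdc20, Cdk1, Top2a and Ube2c, which were called higher in WT core than in WT rim. Beside them stand Racgap1, flat across groups with the elements present, and Nusap1, called higher in WT core with neither element in the window. Other genes of either kind are not shown. Kif2c and Mad2l1, for example, were called higher with no CCAAT box in the 250-base window. The set shown was chosen after the values were seen. Their positions in GRCm38.p6 are Kntc1 chr5:123749596-123749745 on the plus strand, Ccnb2 chr9:70421535-70421684 on the minus strand, Cdc20 chr4:118437324-118437473 on the minus strand, Cdk1 chr10:69352893-69353042 on the minus strand, Top2a chr11:99024170-99024319 on the minus strand, Ube2c chr2:164769799-164769948 on the plus strand, Racgap1 chr15:99651637-99651786 on the minus strand and Nusap1 chr2:119618168-119618317 on the plus strand.
Kntc1: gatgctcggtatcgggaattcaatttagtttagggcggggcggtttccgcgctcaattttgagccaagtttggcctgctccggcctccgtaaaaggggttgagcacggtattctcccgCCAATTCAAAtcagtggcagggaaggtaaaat
Ccnb2: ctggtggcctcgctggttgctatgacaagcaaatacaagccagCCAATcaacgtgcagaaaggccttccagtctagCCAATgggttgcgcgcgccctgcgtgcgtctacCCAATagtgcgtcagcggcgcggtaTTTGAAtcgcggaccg
Cdc20: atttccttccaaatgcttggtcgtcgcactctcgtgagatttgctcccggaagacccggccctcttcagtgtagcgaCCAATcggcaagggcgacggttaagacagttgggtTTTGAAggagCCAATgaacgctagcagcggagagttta
Cdk1: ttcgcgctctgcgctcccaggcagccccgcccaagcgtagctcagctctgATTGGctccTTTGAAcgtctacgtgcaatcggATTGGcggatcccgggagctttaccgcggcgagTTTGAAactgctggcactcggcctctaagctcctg
Top2a: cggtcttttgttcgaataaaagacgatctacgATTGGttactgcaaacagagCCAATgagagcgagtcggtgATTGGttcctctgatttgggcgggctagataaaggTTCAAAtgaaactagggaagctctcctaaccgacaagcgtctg
Ube2c: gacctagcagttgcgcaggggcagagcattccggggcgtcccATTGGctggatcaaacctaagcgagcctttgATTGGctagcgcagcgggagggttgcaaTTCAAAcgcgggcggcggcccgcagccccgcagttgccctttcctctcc
Racgap1: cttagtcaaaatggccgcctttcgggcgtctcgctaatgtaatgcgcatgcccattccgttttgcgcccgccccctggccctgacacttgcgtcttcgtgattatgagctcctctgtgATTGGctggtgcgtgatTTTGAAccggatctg
Nusap1: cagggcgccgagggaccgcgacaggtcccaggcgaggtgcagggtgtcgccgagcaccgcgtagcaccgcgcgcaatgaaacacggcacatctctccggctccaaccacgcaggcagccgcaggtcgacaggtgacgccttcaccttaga

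Ccnb2 carried 3 CCAAT boxes and a TTTGAA close to its start, and Cdk1 carried 2 of each. In Kntc1 the CCAAT box and the reverse CHR letters overlap by a base. In the 250-base window, 17 of the 25 genes with both elements were called higher in WT core than in WT rim, as were 5 of the 8 with sequence but not both, and 6 of the 7 without a sequence here. The median log2 fold change was 2.25 with both elements and 2.11 without both. A CCAAT box with a CHR was in 75.8 percent of the 33 genes and 5.93 percent of all genes when the window began 150 bases before the start.

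In WT mice, 28 of the 40 genes were higher in core than in rim, and none was lower. This was tested with edgeR's quasi-likelihood test with Benjamini-Hochberg adjustment over all 20137 genes, where 3.86 percent of all genes were called in either direction and 2.10 percent were called higher. The log2 fold change was positive for 39 of the 40, with a median of 2.25, against 0.03 over all genes tested. At an unadjusted p under 0.05, 36 of the 40 were higher, against 9.0 percent of all genes. For 38 of the 40, every WT core library lay above both WT rim libraries, against 10.1 percent of all genes. Those that overlapped were Ndc80 and Racgap1. How many genes were called depended on the WT rim libraries, with fewer of the 40 called without either H874 or H877. Either of those fits leaves 1 WT rim library, which gives that group no spread of its own. The number called also depended on the test. DESeq2 called 34, against 11.5 percent of all genes, and limma voom with library quality weights called 4, against 0.690 percent. The member median stayed above 0 under each of these.

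**Figure D2:**
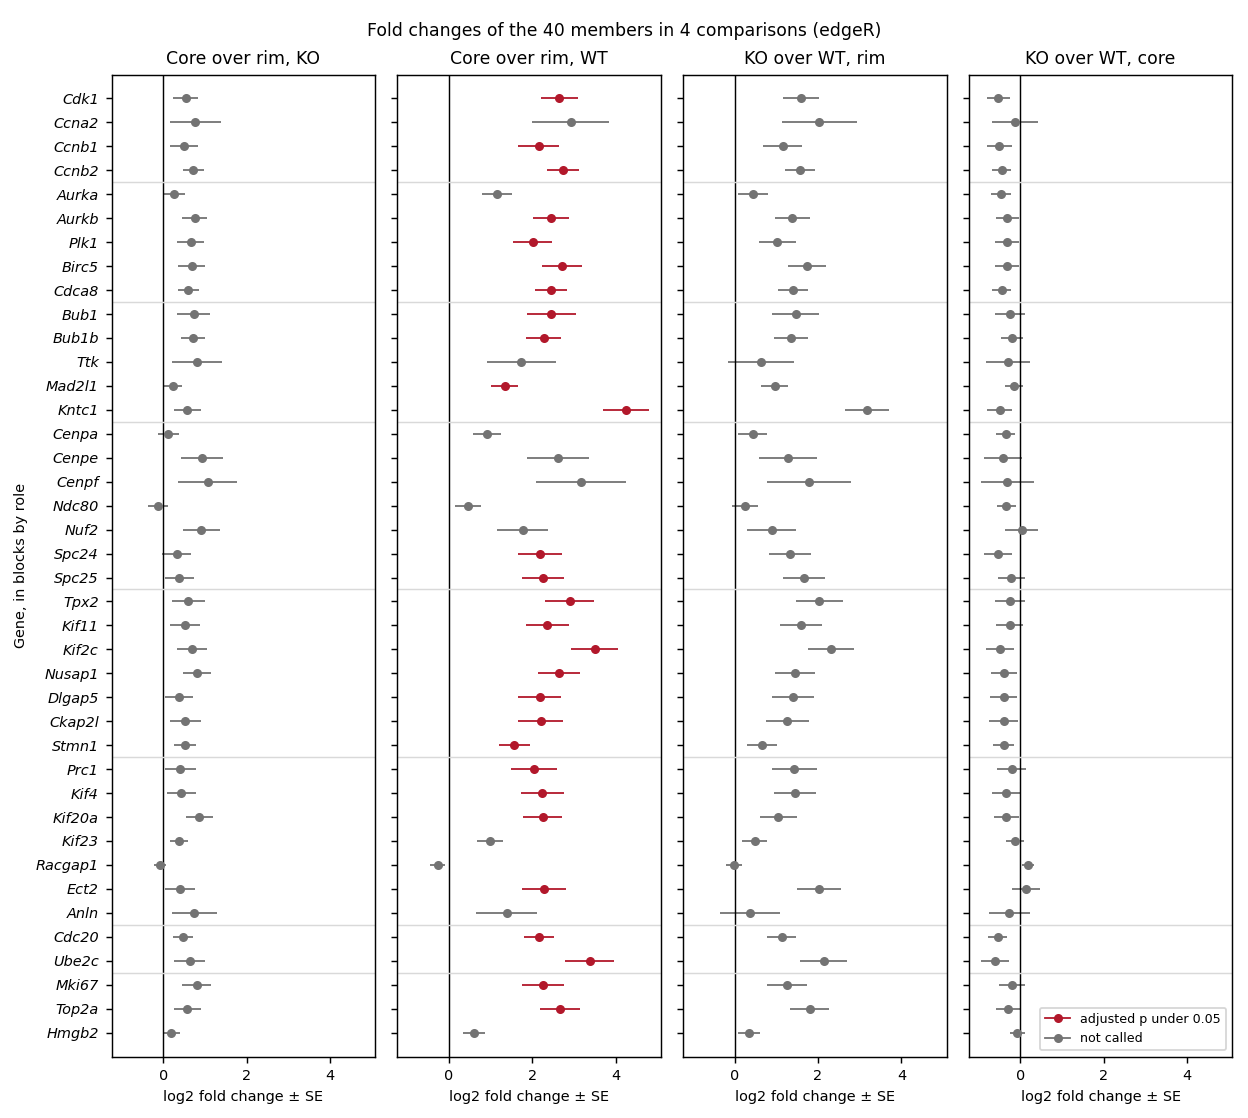
Log2 fold changes from edgeR with their standard errors are shown for the 40 genes in 4 comparisons, in blocks by role, with red for an adjusted p under 0.05. Red points appear only in the core over rim comparison of WT mice (28 of 40), and Racgap1 lies near 0 in all 4 panels.

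Markers of several other cell types differed in the same direction, while B cell markers went the other way (0 of 7 positive, median -0.92). All 11 macrophage and monocyte markers had a positive log2 fold change in WT core over WT rim, with a median of 2.50, and 2 were called (C1qb, 3.45, adjusted p = 0.033, and C1qc, 3.45, adjusted p = 0.034). All 9 tested lung epithelium and tumour cell markers were positive with a median of 2.13, and none was called by edgeR. All 6 fibroblast and mural markers were positive (median 1.71), at summed levels of 7.5 to 39.2 CPM in WT core and 2.91 and 4.42 CPM in WT rim, as were all 5 neutrophil markers (median 1.14), and none of either list was called. Of 6 helper and regulatory T cell markers, 4 were positive (median 1.41) and none was called. Of 9 genes of dissociation stress, 8 were positive (median 0.60), with Hspa1b called higher (3.69, adjusted p = 0.044) and Junb called lower (-0.67, adjusted p = 0.040). The part of these lists in the result was not tested. WT core H719 had the highest level of the 40 genes in its group, at 6.68, with a macrophage mean of 5.37, while WT core H876 had the lowest, at 5.50, with a macrophage mean of 6.65. WT core H873 was high for both, at 6.25 and 6.52.

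Cdk1 forms the kinase of mitotic entry with its cyclins. Ccnb2, a B-type cyclin, had 81.4, 85.2 and 143 CPM as the lowest, median and highest of the 6 KO core libraries. It had 101, 184, 147, 87.5 and 122 CPM in the WT core libraries F164, H719, H873, H876 and pool, 61.9, 30.4, 58.5 and 77.2 CPM in the KO rim libraries F15, F322, F86 and O, and 16.9 and 21.6 CPM in the WT rim libraries H874 and H877. The groups of WT core and WT rim did not overlap, nor did KO core and KO rim, and Ccnb2 was the only one of the 40 genes with that separation in KO mice, against 0.8 percent of all genes. Its log2 fold change was 2.73 in WT core over WT rim (SE 0.38, adjusted p = 0.0025), 0.72 in KO core over KO rim (SE 0.25, adjusted p = 0.62), 1.56 in KO rim over WT rim (SE 0.36, adjusted p = 0.23) and -0.45 in KO core over WT core (SE 0.23, adjusted p = 0.84).

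Cdk1, the kinase itself, had 29.3, 49.9 and 80.6 CPM as the lowest, median and highest of KO core, and 59.9, 111, 83.3, 53.2 and 64.8 CPM in WT core F164, H719, H873, H876 and pool. It had 31.8, 18.6, 40 and 51.9 CPM in KO rim F15, F322, F86 and O, and 8.93 and 14.8 CPM in WT rim H874 and H877. Every KO rim library lay above both WT rim libraries. In WT core over WT rim the log2 fold change was 2.65 (SE 0.45, adjusted p = 0.0074). Of the 4 genes of this role, 3 were called in that comparison. Ccna2, the A-type cyclin of S and G2 phase, was not (log2 fold change 2.92, SE 0.92, adjusted p = 0.092), and its WT core values of 15.1, 167, 27.0, 10.0 and 40.9 CPM spread more widely than those of the other cyclins.

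The mitotic kinases and the chromosomal passenger complex followed. Aurkb is the kinase of that complex and Birc5 (survivin) and Cdca8 (borealin) are its targeting subunits. Birc5 had 58.4, 77.6 and 143 CPM as the lowest, median and highest of KO core and 83.6, 153, 136, 57.5 and 97.7 CPM in WT core F164, H719, H873, H876 and pool. It had 60.4, 27.2, 43.4 and 80.6 CPM in KO rim F15, F322, F86 and O, and 14.2 and 17.8 CPM in WT rim H874 and H877. Every library of the other 3 groups exceeded both WT rim libraries.

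Cdca8 had 49.0, 63.5 and 112 CPM as the lowest, median and highest of KO core and 68.0, 129, 105, 72.6 and 96.7 CPM in WT core F164, H719, H873, H876 and pool. It had 47.9, 25.8, 52.6 and 55.2 CPM in KO rim F15, F322, F86 and O, and 18.1 and 16.5 CPM in WT rim H874 and H877. In WT core over WT rim the log2 fold change was 2.44 for Cdca8 (SE 0.38, adjusted p = 0.0044), 2.72 for Birc5 (SE 0.48, adjusted p = 0.0074) and 2.44 for Aurkb (SE 0.44, adjusted p = 0.0077). Plk1, a kinase of mitotic entry and exit, was called as well, and Aurka, the kinase of centrosomes and spindle poles, was not (log2 fold change 1.15, SE 0.36, adjusted p = 0.090).

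The spindle checkpoint held the gene with the largest difference of the 40. Kntc1 encodes ROD, a kinetochore protein that recruits dynein and checkpoint proteins. It had 16.9, 25.6 and 39.4 CPM as the lowest, median and highest of KO core and 42.8, 46.3, 36.1, 24.3 and 37.6 CPM in WT core F164, H719, H873, H876 and pool. It had 14.3, 16.0, 15.9 and 25.2 CPM in KO rim F15, F322, F86 and O, and 0.84 and 3.10 CPM in WT rim H874 and H877, from 19 and 66 counts. All 15 libraries of the other 3 groups lay above both WT rim libraries. The log2 fold change was 4.25 in WT core over WT rim (SE 0.55, adjusted p = 0.0022) and 3.18 in KO rim over WT rim (SE 0.52, adjusted p = 0.061). The WT core over WT rim call of Kntc1 held under all 24 alternatives (adjusted p from 2.23e-17 to 0.049), and so did that of Ccnb2 (2.8e-12 to 0.045).

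Bub1b (BubR1), a part of the inhibitor that holds back the anaphase-promoting complex, had 60.3, 72.6 and 109 CPM as the lowest, median and highest of KO core and 75.2, 121, 101, 63.8 and 79.3 CPM in WT core F164, H719, H873, H876 and pool. It had 42.6, 19.4, 61.6 and 63.1 CPM in KO rim F15, F322, F86 and O, and 20.7 and 15.7 CPM in WT rim H874 and H877. KO rim F322 lay within the WT rim range, so the rim groups overlapped. Mad2l1, another part of that inhibitor, had 46.0, 62.8 and 109 CPM as the lowest, median and highest of KO core, 69.5, 96.8, 89.9, 54.1 and 67 CPM in WT core, 63.1, 39.5, 61.6 and 69.5 CPM in KO rim, and 33.2 and 26.7 CPM in WT rim, with libraries in the same order. The rim groups did not overlap for Mad2l1. In WT core over WT rim its log2 fold change was 1.33 (SE 0.32, adjusted p = 0.031), smaller than that of Bub1b at 2.27 (SE 0.41, adjusted p = 0.0089). Of the 5 checkpoint genes, 4 were called, and Ttk, the checkpoint kinase MPS1, was not.

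**Figure D3:**
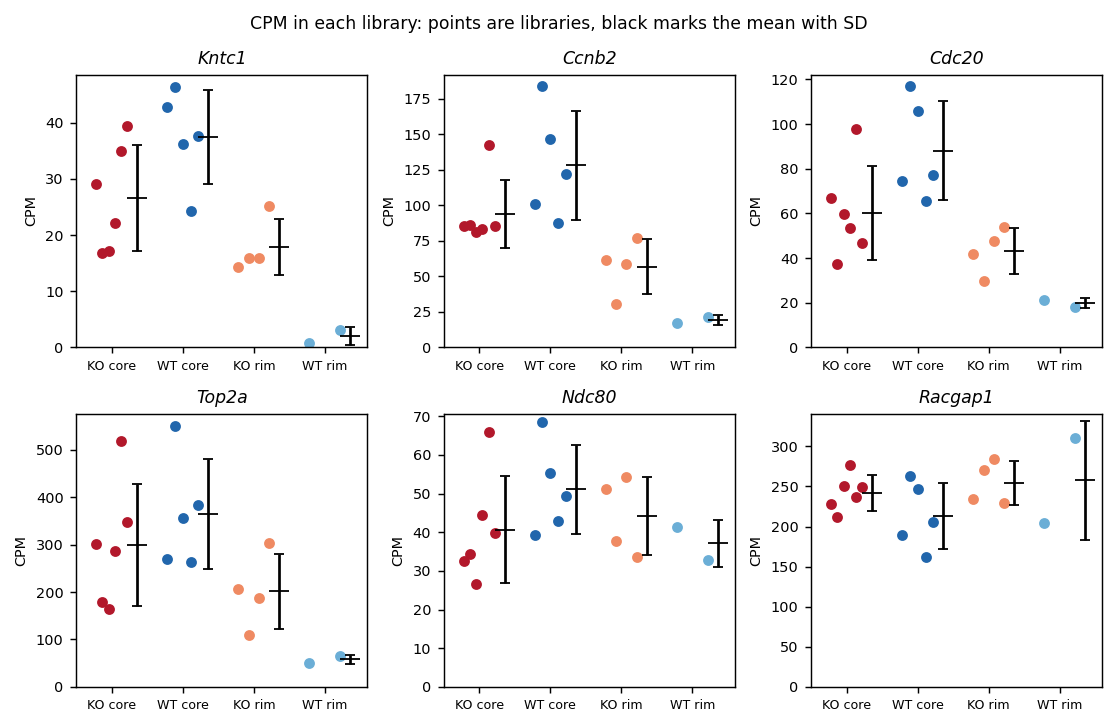
CPM of 6 genes is plotted for every library, with the mean and SD of each group in black. Kntc1, Ccnb2, Cdc20 and Top2a have WT rim points below all others, whereas the groups of Ndc80 and Racgap1 overlap.

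Of the 7 centromere and kinetochore genes, 2 were called (Spc24 and Spc25). Cenpa, the histone H3 variant that marks centromeres, had 87.2, 125 and 192 CPM as the lowest, median and highest of KO core, 115, 257, 195, 111 and 158 CPM in WT core F164, H719, H873, H876 and pool, 154, 88.6, 93.1 and 143 CPM in KO rim F15, F322, F86 and O, and 102 and 75.8 CPM in WT rim H874 and H877. WT core and WT rim did not overlap, but the lowest WT core library lay close to the higher WT rim library, and the log2 fold change was 0.91 (SE 0.34, adjusted p = 0.17). Cenpe, a kinesin that moves chromosomes to the spindle equator, had 25.0, 40.1 and 101 CPM as the lowest, median and highest of KO core, 67.6, 100, 77.3, 28.2 and 68.2 CPM in WT core, 35.3, 13.0, 8.14 and 51.9 CPM in KO rim, and 7.64 and 14.6 CPM in WT rim, in that order of libraries. Its spread within groups was wide, and its log2 fold change in WT core over WT rim was 2.62 (SE 0.74, adjusted p = 0.062).

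Cenpf, a large kinetochore protein, had no count in WT rim H877, where 3 counts would be 0.141 CPM, and 12.9 CPM in WT rim H874. It had 29.7, 42.0 and 71.1 CPM as the lowest, median and highest of KO core, 73.4, 95.9, 47.7, 25.4 and 47.9 CPM in WT core F164, H719, H873, H876 and pool, and 33.2, 11.2, 14.0 and 30.6 CPM in KO rim F15, F322, F86 and O. It had the highest log2 fold change of the 40 genes in KO core over KO rim, at 1.07 (SE 0.71, adjusted p = 0.76).

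The 4 subunits of the Ndc80 complex, which binds microtubules at the kinetochore, did not keep their proportions. Ndc80 had 26.7, 37.0 and 66.0 CPM as the lowest, median and highest of KO core, 39.3, 68.6, 55.5, 42.8 and 49.5 CPM in WT core F164, H719, H873, H876 and pool, 51.2, 37.6, 54.3 and 33.5 CPM in KO rim F15, F322, F86 and O, and 41.4 and 32.9 CPM in WT rim H874 and H877, and all groups overlapped. Its log2 fold change in WT core over WT rim was 0.46 (SE 0.31, adjusted p = 0.47), against 1.77 (SE 0.61) for its dimer partner Nuf2, 2.18 (SE 0.52) for Spc24 and 2.26 (SE 0.51) for Spc25. As a share of the complex's reads per kilobase of exon, Ndc80 averaged 18.8 percent in KO core, 19.6 percent in WT core (range 15.9 to 25.4) and 26.5 percent in KO rim (14.2 to 33.3), and was 42.5 and 43.1 percent in the WT rim libraries. This share was looked at after the fold changes were seen, and it was not tested.

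All 7 spindle assembly genes were called in WT core over WT rim. Kif2c, a kinesin that takes microtubules apart at their ends, had 18.4, 27.1 and 51.4 CPM as the lowest, median and highest of KO core and 52.6, 48.2, 48.5, 25.6 and 28.4 CPM in WT core F164, H719, H873, H876 and pool. It had 13.1, 6.90, 24.0 and 27.7 CPM in KO rim F15, F322, F86 and O, and 3.84 and 3.38 CPM in WT rim H874 and H877. Its log2 fold change was 3.49 in WT core over WT rim (SE 0.57, adjusted p = 0.0056) and 2.31 in KO rim over WT rim (SE 0.54, adjusted p = 0.24).

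Stmn1, which sequesters tubulin, was the most abundant of this role per kilobase of exon, at 75.3 CPM per kilobase over all libraries. It had 100, 141 and 236 CPM as the lowest, median and highest of KO core, 149, 286, 246, 152 and 163 CPM in WT core F164, H719, H873, H876 and pool, 103, 58.0, 129 and 132 CPM in KO rim F15, F322, F86 and O, and 54.2 and 80.3 CPM in WT rim H874 and H877. Kif11 (Eg5), the motor that pushes spindle poles apart, had 75.4, 116 and 210 CPM as the lowest, median and highest of KO core, 104, 218.7, 170, 72.5 and 168 CPM in WT core, 85.7, 41.1, 93.6 and 122 CPM in KO rim, and 30.7 and 26.6 CPM in WT rim, in that order of libraries. The rim groups overlapped for Stmn1 and not for Kif11. The log2 fold change in WT core over WT rim was 1.57 for Stmn1 (SE 0.38, adjusted p = 0.030) and 2.36 for Kif11 (SE 0.52, adjusted p = 0.021).

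Central spindle and cytokinesis genes held the exception of the whole set. Racgap1 is the GTPase-activating subunit of centralspindlin, with the kinesin Kif23 as the other subunit. It had 212, 244 and 277 CPM as the lowest, median and highest of KO core, 190, 263, 247, 162 and 205 CPM in WT core F164, H719, H873, H876 and pool, 234, 271, 285 and 229 CPM in KO rim F15, F322, F86 and O, and 205 and 310 CPM in WT rim H874 and H877. All groups overlapped. Its log2 fold change was -0.27 in WT core over WT rim (SE 0.18, adjusted p = 0.47), the lowest of the 40, -0.07 in KO core over KO rim (SE 0.14), -0.02 in KO rim over WT rim (SE 0.19) and 0.18 in KO core over WT core (SE 0.13), none of them called.

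Kif23 itself was not called either (log2 fold change 0.99 in WT core over WT rim, SE 0.30, adjusted p = 0.084). Ect2, the RhoA exchange factor that binds Racgap1, was (2.29, SE 0.53, adjusted p = 0.026). Prc1, which bundles the microtubules of the central spindle, had 38.8, 59.0 and 95.1 CPM as the lowest, median and highest of KO core, 63.4, 108, 88.4, 35.3 and 63.2 CPM in WT core F164, H719, H873, H876 and pool, 41.2, 21.1, 33 and 91.9 CPM in KO rim F15, F322, F86 and O, and 15.5 and 19.2 CPM in WT rim H874 and H877. No KO rim library lay within the WT rim range, and the log2 fold change in WT core over WT rim was 2.05 (SE 0.55, adjusted p = 0.047). Of the 7 genes of this role, 4 were called.

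The partners of the anaphase-promoting complex were both called. Cdc20, its mitotic activator, had 37.4, 56.6 and 97.7 CPM as the lowest, median and highest of KO core and 74.4, 117, 106, 65.6 and 77.4 CPM in WT core F164, H719, H873, H876 and pool. It had 41.9, 29.9, 47.5 and 54.1 CPM in KO rim F15, F322, F86 and O, and 21.5 and 18.2 CPM in WT rim H874 and H877. The log2 fold change of Cdc20 in WT core over WT rim was 2.15 (SE 0.36, adjusted p = 0.0061). Ube2c, the ubiquitin-conjugating enzyme of the complex, had 28.2, 50.8 and 93.7 CPM as the lowest, median and highest of KO core, 50.7, 152, 73.9, 54.7 and 80.3 CPM in WT core, 35.4, 16.6, 27.9 and 59.2 CPM in KO rim, and 9.24 and 6.62 CPM in WT rim, in that order of libraries. For Ube2c it was 3.37 (SE 0.59, adjusted p = 0.0074). Of 15 further genes of the complex, its subunits and the other co-activator Fzr1, none was called by edgeR, with 1 higher and 1 lower at an unadjusted p under 0.05 and a median log2 fold change of 0.04. Anapc5, the most abundant subunit gene by counts, averaged 425 CPM in WT core and 423 CPM in WT rim.

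Among chromatin genes, Top2a, the topoisomerase that untangles sister chromosomes, had 164.3, 293 and 519 CPM as the lowest, median and highest of KO core and 270, 551, 357, 263 and 383 CPM in WT core F164, H719, H873, H876 and pool. It had 206, 109, 188 and 303 CPM in KO rim F15, F322, F86 and O, and 50.6 and 64.6 CPM in WT rim H874 and H877. In WT core over WT rim the log2 fold change was 2.66 (SE 0.48, adjusted p = 0.0088). Hmgb2, a DNA-bending chromatin protein, had 417, 691 and 990 CPM as the lowest, median and highest of KO core, 559, 953, 761, 603 and 678 CPM in WT core, 685, 538, 547 and 591 CPM in KO rim, and 411 and 522 CPM in WT rim, in that order of libraries. The groups of WT core and WT rim did not overlap, but the log2 fold change was 0.61 (SE 0.26, adjusted p = 0.22). Per kilobase of exon Hmgb2 was the most abundant of the 40, at 214 CPM per kilobase over all libraries.

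The 40 genes did not separate the genotypes in the rim by the adjusted test. None was called in KO rim over WT rim by edgeR, as none was among all genes (0 percent). The direction was nearly uniform: the log2 fold change was positive for 39 of 40, with a median of 1.37 against 0.01 over all genes tested. At an unadjusted p under 0.05, 28 of the 40 were higher, against 4.67 percent of all genes, and for 21 of the 40 every KO rim library lay above both WT rim libraries, against 6.86 percent of all genes. The highest log2 fold change was that of Kntc1, at 3.18, and the lowest that of Racgap1, at -0.02. DESeq2 called 14 of the 40, against 1.69 percent of all genes, and limma voom with quality weights called none, against 0.0298 percent.

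Single libraries carried weight in the rim comparison. KO rim F322 lay within the WT rim range or below it for 19 of the 40 genes. Without that library edgeR called 4 (Ccnb2, Kntc1, Kif2c and Ect2), against 0.131 percent of all genes. Without WT core H719 or WT core H876 it called 1, Kntc1, against 0.0652 and 0.0453 percent of all genes. Fits without WT rim H874 or H877 leave 1 WT rim library, which gives that group no spread of its own. Without KO rim O, the KO rim library with the highest level of these genes, none was called and 20 had an unadjusted p under 0.05. At that threshold the share of all genes was not counted in this fit. Markers of several other cell types differed in the same direction as the 40 genes, but not all lists did. B cell markers were positive for 0 of 7 (median -0.58), natural killer cell markers for 2 of 5 (median -0.59) and endothelial markers for 3 of 6 (median -0.15). Macrophage markers were positive for 11 of 11 (median 2.17), lung epithelium and tumour cell markers for 9 of 9 (median 1.73), and dissociation stress genes for 7 of 9 (median 0.98). Fibroblast and mural markers were positive for 6 of 6 (median 3.21), at summed levels of 8.52 to 82 CPM in KO rim and 2.91 and 4.42 CPM in WT rim, and none of these lists had a called gene by edgeR. KO rim O had the highest macrophage mean of its group (6.97) and the highest epithelial mean (5.01). Their part in the result was not tested. KO rim F86 had a macrophage mean of 2.92, below the 3.97 and 3.51 of WT rim H874 and H877, and 34 of the 40 genes lay above both WT rim libraries in it. This count and that of 19 genes for KO rim F322 were not made over all genes.

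In KO mice, the 40 genes did not separate core from rim by the adjusted test. None was called in KO core over KO rim by edgeR, which called 0 percent of all genes, by DESeq2, which called 0.183 percent, or by limma voom with quality weights, which called 0.00993 percent. The log2 fold change was positive for 38 of 40, with a median of 0.57 against 0.03 over all genes tested, and 8 of the 40 were higher at an unadjusted p under 0.05, against 3.43 percent of all genes. The lowest was Ndc80, at -0.12 (SE 0.23, adjusted p = 0.97). That count of 8 was 1 without KO core F86, 1 without KO rim F322 and 25 without KO rim O, and by limma voom with quality weights it was 17. For these other fits no share of all genes was counted at that threshold. Macrophage markers were positive for 4 of 11 (median -0.09), lung epithelium and tumour cell markers for 6 of 9 (median 0.70) and natural killer cell markers for 5 of 5 (median 0.44), and the part of these lists in the result was not tested.

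The difference between the genotypes was tested directly as the genotype effect in rim minus that in core. It was positive for 39 of 40 genes with a median of 1.69, against 0.01 over all genes tested, and none was called by edgeR, as none was among all genes (0 percent). At an unadjusted p under 0.05, 28 of the 40 were higher, against 4.86 percent of all genes. The highest was Kntc1, at 3.67 (SE 0.59, adjusted p = 0.062), and the lowest Racgap1, at -0.20 (SE 0.23, adjusted p = 0.92). DESeq2 called 10 of the 40, against 0.880 percent of all genes, and limma voom with quality weights none, against 0 percent. Positive too were 11 of 11 macrophage markers (median 2.79) and 9 of 9 lung epithelium and tumour cell markers (median 1.56). So were 6 of 6 fibroblast and mural markers (median 1.90) and 5 of 5 neutrophil markers (median 1.60). Natural killer cell markers were positive for 1 of 5 (median -0.34) and endothelial markers for 2 of 6 (median -0.50). None of these markers was called by edgeR, and their part was not tested. This contrast uses the same WT rim libraries as the comparisons of WT core and KO rim with WT rim, so it is not a separate observation.

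In the core, KO values lay slightly below WT values for most of the 40 genes. The log2 fold change of KO core over WT core was negative for 37 of 40, with a median of -0.32 against -0.01 over all genes tested, and none was called by edgeR, which called 0 percent of all genes, by DESeq2, which called 0.0648 percent, or by limma voom with quality weights, which called 0 percent. Negative too were 11 of 11 macrophage markers (median -0.44), 7 of 7 B cell markers (median -1.19) and 5 of 5 neutrophil markers (median -0.97), while 8 of 9 lung epithelium and tumour cell markers (median 0.46) and 5 of 6 fibroblast and mural markers (median 0.82) were positive. None of them was called by edgeR, and their part in the result was not tested. The groups overlapped for all 40 genes, as they did for nearly all genes. Every KO core library lay above every WT core library for 0.223 percent of all genes, and below for 0.174 percent. Of the 40, 18 were within 1 standard error of 0, a count with no share over all genes beside it. The lowest was Ube2c, at -0.61 (SE 0.35, adjusted p = 0.89), and the highest Racgap1. Only Cdc20 was lower at an unadjusted p under 0.05 in edgeR, at -0.55 (SE 0.23), against 2.43 percent of all genes. Without KO core F86, whose levels were the highest of its group for 38 genes, 12 of the 40 had an unadjusted p under 0.05. How many of all genes reached that threshold in this fit was not counted.

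Other cell cycle genes were counted on lists that share no gene with the 40. Of 59 further G2/M genes, 25 were called higher in WT core over WT rim and none lower, with a median log2 fold change of 1.76. Smc4, a condensin subunit and the most abundant of them by counts, was not among these: it averaged 463 CPM in WT core and 638 CPM in WT rim, where its libraries differed widely (327 and 950 CPM). Hjurp, the chaperone that loads Cenpa, averaged 139 CPM in WT core and 114 CPM in WT rim, with a log2 fold change of 0.29 (adjusted p = 0.58). Of 32 genes of G1/S and DNA replication, 18 were called higher and none lower, with a median of 1.22. Mcm6, a subunit of the replicative helicase, averaged 511 CPM in WT core and 182 CPM in WT rim (log2 fold change 1.49, SE 0.34, adjusted p = 0.023). Slbp, which binds histone mRNA, averaged 292 and 320 CPM in WT core and WT rim and was not called.

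Of 24 cell cycle inhibitors and quiescence genes, none was called higher and 2 were called lower, with a median of -0.06. Both are transcripts of resting T cells, Tob1 (log2 fold change -1.32, adjusted p = 0.030) and Foxo1 (-1.11, adjusted p = 0.040), and were named after their values were seen. Btg2, an antiproliferative gene and the most abundant on that list, averaged 1180 CPM in WT core and 2050 CPM in WT rim (log2 fold change -0.80, adjusted p = 0.099). In KO rim over WT rim, none of these lists had a called gene by edgeR. The median log2 fold change there was 1.20 for the further G2/M genes, 0.57 for the G1/S genes and -0.01 for the inhibitors.

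**Figure D4:**
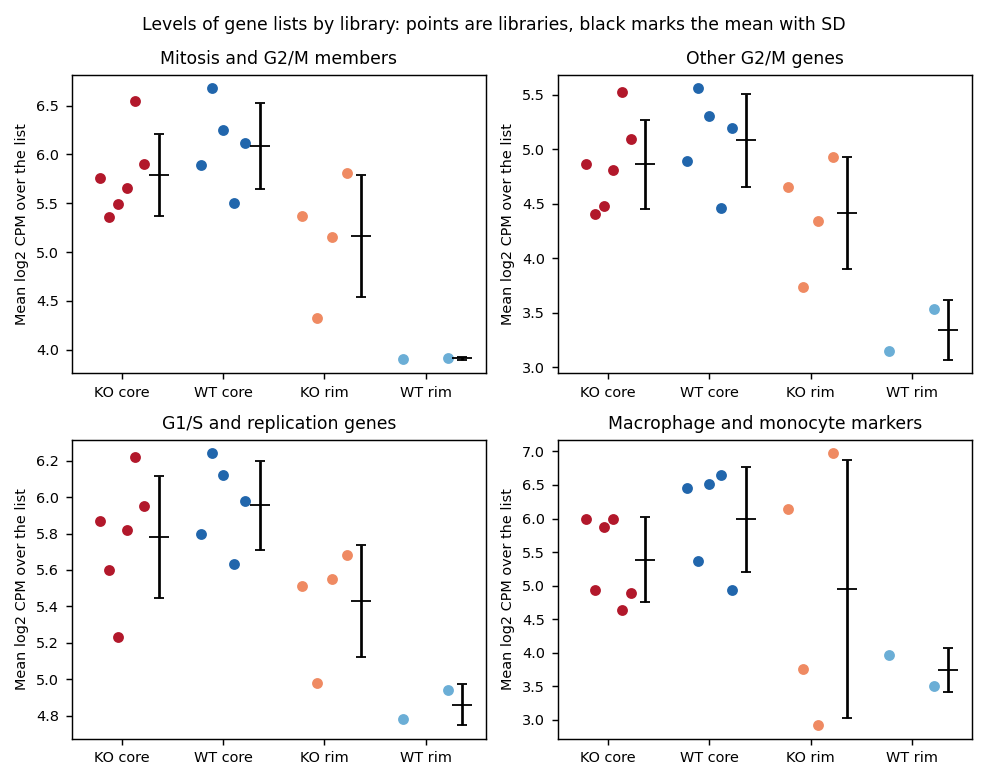
The mean log2 CPM over 4 gene lists is plotted for each library, with the mean and SD of each group in black. The 40 genes, the other G2/M genes and the G1/S genes are lowest in the WT rim libraries, while macrophage markers spread from 2.92 to 6.97 within KO rim.

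Some counts could be shared with neighbours, since the sources used here do not say whether reads were counted by strand. In the annotation, 1271 exon bases of Kif20a (29.3 percent) overlap Cdc23 on the opposite strand, 592 of Ube2c (22.8 percent) overlap Tnnc2, 832 of Kif4 (15.1 percent) overlap Pdzd11, 510 of Ccna2 (12.5 percent) overlap Exosc9, and 911 of Prc1 (11.1 percent) overlap Rccd1. Values of these 5 genes are uncertain, and the share of their counts that could come from the neighbour was not measured. Tnnc2 did not exceed 0.704 CPM in any library, while Cdc23 averaged 103 CPM in WT core and 111 CPM in WT rim, and none of the 5 neighbours was called in WT core over WT rim. Nusap1 shares 172 exon bases (4.24 percent) with Oip5, a centromere gene that was itself called higher (log2 fold change 3.13, adjusted p = 0.0074).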

How the data were processed

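RNA was sequenced from sorted CD8 T cells in 17 libraries. Per the labels' protocols, RNA was purified with the Qiagen RNeasy Micro Kit and libraries were made with the Illumina TruSeq kit. Subread 2.0.0 with featureCounts, HISAT2, Bowtie2 2.4.5 and cutadapt 3.2 are named without settings in the submitters' processing notes, as are the builds mm10 and GRCm38. The table the authors deposited holds unnormalized counts of reads for each gene symbol.

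Groups follow the labelled genotype and site. Counts were fitted in edgeR 4.0.16 (R 4.3.3) with filterByExpr, TMM factors and a robust quasi-likelihood model over all 17 libraries, which lets the 2 WT rim libraries borrow their spread from all groups. 5 contrasts were tested, two-sided, with Benjamini-Hochberg adjustment over all 20137 genes, and calls required an adjusted p under 0.05. Standard errors were the absolute log2 fold change divided by the square root of F. CPM used TMM-scaled totals, and log2 CPM a prior count of 2. A floor is 3 counts and covers counting error only.

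Alternatives were DESeq2 size factors, no filter, DESeq2 1.42.0, limma 3.58.1 voom with quality weights or with the identifier as a block, and libraries left out. Exon lengths and overlaps came from the GENCODE annotation of GRCm38, and promoters from RefSeq. Library values are given for the 2 genes of each role with the highest mean CPM, and statistics for the highest and lowest fold change and the 5 smallest adjusted p of a comparison; others were named after their values were seen. The 40 genes, their 8 roles and the lists were chosen with earlier results of these data known.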

Additional observations from a re-analysis of the deposited data

Results flagged for a closer look

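In groups of 4 to 6 libraries, 15 of 120 combinations of gene and group had a library far from the others by Dixon's test, where chance flags about 1 in 20. KO core F86 held 10 of them, each the highest of its group: Ccnb2 at 143 CPM, Aurkb at 87.0, Birc5 at 143, Cdca8 at 112, Ttk at 24.6, Tpx2 at 133, Kif2c at 51.4, Dlgap5 at 60.0, Kif23 at 76.5 and Mki67 at 244 CPM. For Ccnb2 the next KO core library stood at 86.2 CPM, and for Mki67 at 124 CPM. WT core H719 held 2, with Ccna2 at 167 CPM, where the next library stood at 40.9 CPM, and Ttk at 21 CPM. KO rim O held 2, with Kntc1 at 25.2 CPM and Spc25 at 59.0 CPM. KO rim F322 was the lowest of its group for Spc24, at 6.94 CPM, where the next library stood at 21.8 CPM. These genes share their libraries, so the flags are not independent of each other.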

How the results depend on the processing

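For each comparison 24 alternatives were run (25 for core over rim in KO mice). The median log2 fold change of the 40 genes kept its sign in each comparison, running from -0.509 to -0.155 in KO core over WT core, 1.08 to 1.6 in KO rim over WT rim, 0.373 to 0.939 in KO core over KO rim, 2.05 to 2.36 in WT core over WT rim and 1.44 to 1.95 in the difference between genotype effects. Over all genes, calls in KO core over WT core were 12 by DESeq2. In KO rim over WT rim they were 2 with no filter, 272 by DESeq2, 6 by voom with quality weights, 8 by voom with the replicate block, 2 without the WT core pool and KO rim O, and 0 to 26 with 1 library left out. In KO core over KO rim they were 33 by DESeq2 and 2 by each voom fit. In WT core over WT rim, against 777, they were 1853 by DESeq2, 139 with quality weights, 457 without F322 and O, and 68 to 851 with 1 library left out. For the difference between genotype effects they were 4 with no filter, 159 by DESeq2, 2 without the pool and O, and 0 to 14 with 1 library left out. Of the 40 genes, calls in KO rim over WT rim were 14 by DESeq2 and 0 to 4 with 1 library left out. In WT core over WT rim, against 28, they were 4 with quality weights, 14 with the block and 3 to 30 with 1 library left out. For the difference they were 1 with no filter, 10 by DESeq2 and 0 to 2 with 1 library left out. Directions turned for Anln, Racgap1, Ttk and Ndc80. In KO rim over WT rim, Anln stood at -0.0646 with quality weights, -0.425 with the block, -0.253 without F322 and O, -0.569 without the pool and O, and -0.569 to 0.744 with 1 library left out, Racgap1 at 0.0112 with the block, 0.0397 without F322 and O, 0.0403 without the pool and O, and -0.288 to 0.331 with 1 library left out, and Ttk at -0.165 to 2.55 with 1 library left out. Racgap1 ran from -0.544 to 0.0746 in WT core over WT rim and from -0.468 to 0.151 in the difference, and Ndc80 in KO core over KO rim was 0.242 with F322, F86 and O as blocks in edgeR. The cause was not tested. Same-identifier libraries correlated in their deviations at 0.0721, 0.0449 and 0.0818 in F322, F86 and O, each library correlating best with its own identifier, with a consensus correlation of 0.0425, and the labels do not say what the identifiers mark, so they were not taken to pair the samples. Of the 40 genes, 40, 39 and 25 were higher in core than in rim within F322, F86 and O. In KO core over KO rim, 21 had an unadjusted p under 0.05 with these 3 as blocks in edgeR and 14 with the block in voom, against 8 without. No share of all genes was counted for these fits or within the identifiers, so these counts cannot be set against a background rate. The median of all genes in WT core over WT rim was 0.0955 without WT rim H874 and 0.234 without WT rim H877. Counts were few for Kntc1, with 19 and 66 counts in WT rim, and Cenpf, with none in WT rim H877.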

Other observations

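Anln and Ttk varied more within KO rim than between the means of KO rim and WT rim. Other genes of the 40 did so too, such as Cenpe, with an SD of 20.3 CPM in KO rim and means of 27.1 and 11.1 CPM. Racgap1 had an SD of 27.4 CPM there and means of 255 and 258 CPM. In WT mice every core library lay above both rim libraries for Anln and for Ttk. The lowest WT core value was 14.8 CPM for Anln and 12.9 CPM for Ttk. Anln, an actin-binding scaffold of the cleavage furrow, had 13.4, 3.43, 1.68 and 29.1 CPM in KO rim F15, F322, F86 and O, and 8.75 and 9.62 CPM in WT rim H874 and H877. Ttk had 7.76, 0.762, 6.0 and 14.3 CPM in the same KO rim libraries and 1.24 and 8.07 CPM in WT rim H874 and H877. B cell markers moved the other way from the 40 genes, with 0 of 7 positive in KO core over KO rim (median log2 fold change -1.58) and in WT core over WT rim (median -0.92), and none called by edgeR. Their summed level ran from 32.9 to 209 CPM in KO core, 108 to 479 in WT core, 98.1 to 475 in KO rim and 395 to 534 in WT rim.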
